A study of Mus musculus with 37 samples.

Results

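The enzymes that carry glucose carbon through glycolysis, the pyruvate dehydrogenase complex and the tricarboxylic acid (TCA) cycle were examined in dopamine and GABA neuron translatomes of young and old mice. The 37 enzymes were chosen by gene symbol, 17 of glycolysis and lactate exchange, 4 of the pyruvate dehydrogenase complex and 16 of the TCA cycle. Mdh1, the cytosolic malate dehydrogenase, was counted with the TCA cycle here, although it acts outside the mitochondrial cycle. They matched 38 of the 57180 gene rows in the count tables, because the symbol Aldoa stood on 2 rows. DAT;NuTRAP mice carried an internal ribosome entry site and Cre at the dopamine transporter gene Slc6a3, and VGAT;NuTRAP mice carried the same kind of Cre knock-in at the vesicular GABA transporter gene. In both lines Cre removed a stop cassette at Rosa26, so that the tagged ribosomal protein EGFP-L10a was made where Cre was active, and RNA bound to GFP-tagged ribosomes of the midbrain was sequenced.

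The DAT;NuTRAP libraries came from 10 Young mice (5 females and 5 males, 8 to 10.5 months) and 9 Old mice (4 females and 5 males, 21 months). The VGAT;NuTRAP libraries came from 10 Young mice (6 females and 4 males, 7 to 9 months) and 8 Old mice (5 females and 3 males, 21 to 24 months). The labels placed 8 DAT and 6 VGAT libraries in a first batch and 11 DAT and 12 VGAT libraries in a second, and do not say whether a batch of one line was handled together with the same-numbered batch of the other. Every library of a cell type came from one Cre line, so line and cell type cannot be told apart, and the VGAT driver marks several kinds of GABA neuron at once. Totals ran from 13841253 to 38235015 counts per library. Slc6a3 averaged 3274 CPM in DAT and 797 CPM in VGAT libraries, and Gad1, which makes GABA, averaged 134 and 1797 CPM, so each line held the markers of its label, with the other line's markers present at a lower level.

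Glycolysis splits glucose into pyruvate in the cytosol and yields a little ATP quickly. Lactate dehydrogenase, built from A and B subunits, exchanges pyruvate with lactate. The pyruvate dehydrogenase complex turns pyruvate into acetyl-CoA inside mitochondria, and the TCA cycle oxidises that acetyl group to feed the respiratory chain. Several steps have a pair of isoenzymes, of which one is usually the more neuronal form (Eno2) and another is common in glia (Aldoc) or in most tissues (Eno1, Aldoa). Dopamine neurons fire continuously and carry very large axons, and their energy supply has long been studied for that reason.

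Dopamine and GABA neuron translatomes differed in the balance of these enzymes. Levels below are CPM, counts scaled to the library total after TMM scaling, and differences are log2 values, DAT minus VGAT, with their standard error (SE). A gene was called when the adjusted p of the edgeR quasi-likelihood test was below 0.05. With Young and Old averaged, 10 of the 38 enzyme rows were called higher in DAT libraries and 14 lower. Over all 16898 genes tested, 30% were called higher and 30.4% lower, or 60.5% in all, so the enzymes were called about as often as other genes. Their median log2 difference was -0.03, against 0.01 over all genes. By role, 7 of 18 glycolysis rows were higher and 4 lower (median 0.02), 1 of 4 pyruvate dehydrogenase subunits was higher and 3 lower (median -0.42), and 2 of 16 TCA cycle enzymes were higher and 7 lower (median -0.12). In bulk pulldowns such as these, fewer tagged cells of a type and less RNA per cell cannot be told apart.

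**Figure D1:**
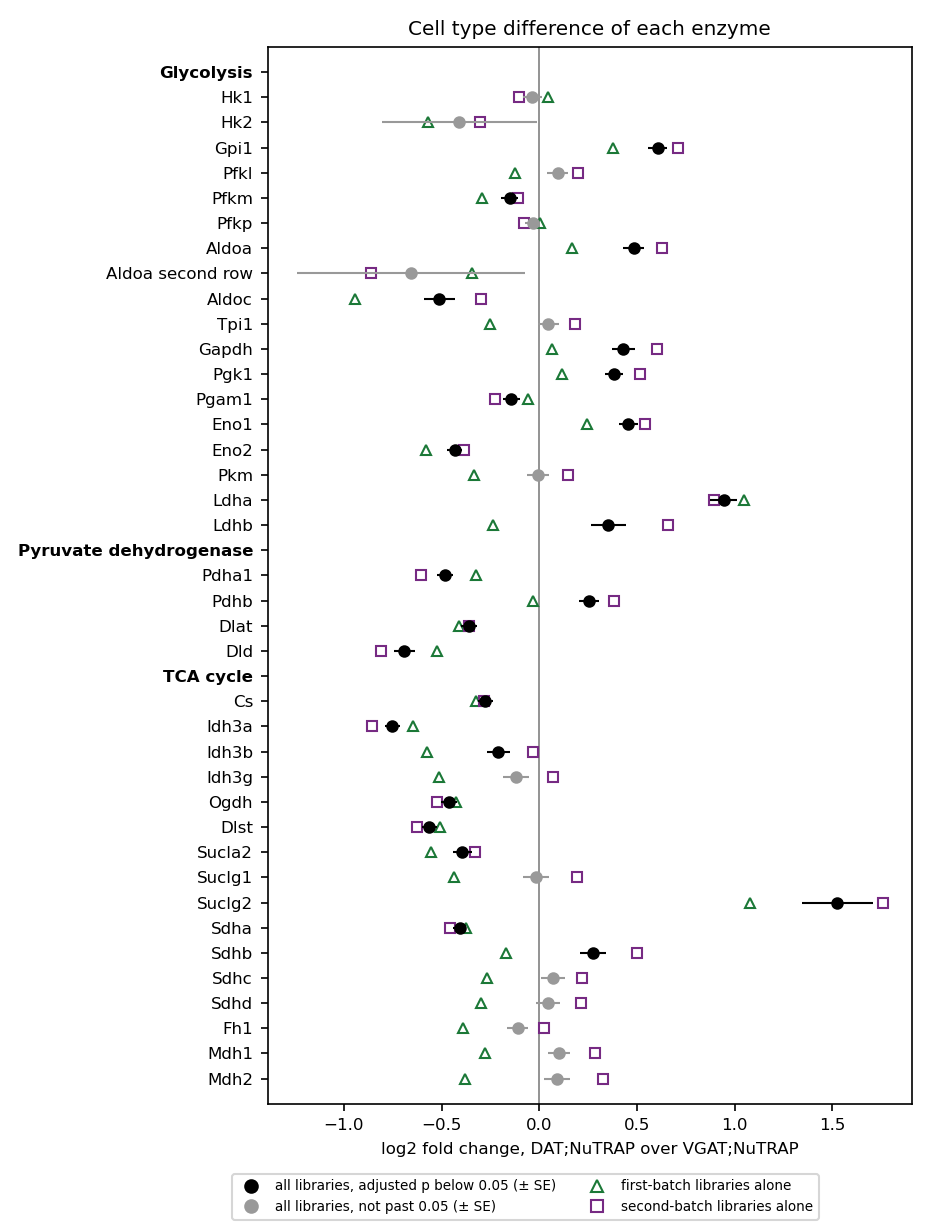
Log2 difference of every enzyme row, DAT minus VGAT, ordered by role, with the fit over both batches and the fits within each batch. Ldha, Gpi1 and Suclg2 lie to the right of 0 and Idh3a, Dld and Dlst to the left in every fit, whereas Ldhb, Sdhb and Mdh2 change side between the batches.

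Because batch mattered for many of these genes, each batch was also tested alone. In both batches 5 enzymes were higher in DAT libraries (Ldha, Gpi1, Aldoa, Eno1 and Suclg2), where 14% of the 16324 genes tested in both batches were. Another 12 were lower in both (Pfkm, Aldoc, Eno2, Pdha1, Dlat, Dld, Cs, Idh3a, Ogdh, Dlst, Sucla2 and Sdha), where 16.3% of all genes were. These 17 are described first.

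Ldha (ENSMUSG00000063229), the lactate dehydrogenase A subunit, had the smallest p among the glycolytic enzymes. Its lowest, median and highest levels were 198, 262 and 358 CPM in the 19 DAT libraries and 111, 134 and 170 CPM in the 18 VGAT libraries. Every DAT library lay above every VGAT library. The log2 difference was 0.94 ± 0.07 (SE, adjusted p = 1.51e-15), with 1.05 in the first batch and 0.90 in the second. Ldha was the one enzyme whose libraries did not overlap in this direction, which held for 3.37% of all genes.

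In the opposite direction, 3 enzymes of the TCA cycle had libraries that did not overlap, which held for 4.99% of all genes. Idh3a (ENSMUSG00000032279), the catalytic subunit of the NAD-dependent isocitrate dehydrogenase, ran from 183 over a median of 228 to 289 CPM in DAT and from 343 over 374 to 448 CPM in VGAT libraries. Its log2 difference was -0.75 ± 0.04 (adjusted p = 2.94e-20), the smallest p among the enzymes. Ogdh (ENSMUSG00000020456), the E1 subunit of the 2-oxoglutarate dehydrogenase complex, ran from 313 over 426 to 501 CPM in DAT and from 523 over 579 to 688 CPM in VGAT libraries. Dlst (ENSMUSG00000004789), the E2 subunit of the same complex, ran from 110 over 146 to 171 CPM in DAT and from 180 over 209 to 230 CPM in VGAT libraries. The lowest VGAT library thus lay above the highest DAT library for each of the 3 genes. The log2 differences were -0.46 ± 0.04 for Ogdh (adjusted p = 1.85e-12) and -0.56 ± 0.04 for Dlst (adjusted p = 5.09e-16).

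The promoters of these 4 genes are shown because they are the enzymes whose lines separate completely. Each is the plus strand of GRCm39, 250 bases that end just before the start of the gene's canonical transcript in the annotation, at chr7:46495013-46495262 for Ldha, chr9:54493362-54493611 for Idh3a, chr11:6241301-6241550 for Ogdh and chr12:85156777-85157026 for Dlst. Capitals mark matches to the core of the hypoxia-inducible factor element, ACGTG or GCGTG on either strand.
Ldha: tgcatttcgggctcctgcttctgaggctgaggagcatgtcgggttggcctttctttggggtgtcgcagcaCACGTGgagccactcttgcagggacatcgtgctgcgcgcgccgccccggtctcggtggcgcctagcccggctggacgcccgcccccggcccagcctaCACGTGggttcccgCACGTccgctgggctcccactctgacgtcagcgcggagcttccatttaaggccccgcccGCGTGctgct
Idh3a: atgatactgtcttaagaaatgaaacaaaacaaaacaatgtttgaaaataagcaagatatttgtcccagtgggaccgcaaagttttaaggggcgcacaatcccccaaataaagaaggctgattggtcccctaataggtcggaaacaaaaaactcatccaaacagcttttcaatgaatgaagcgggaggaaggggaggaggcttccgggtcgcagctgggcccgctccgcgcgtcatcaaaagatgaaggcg
Ogdh: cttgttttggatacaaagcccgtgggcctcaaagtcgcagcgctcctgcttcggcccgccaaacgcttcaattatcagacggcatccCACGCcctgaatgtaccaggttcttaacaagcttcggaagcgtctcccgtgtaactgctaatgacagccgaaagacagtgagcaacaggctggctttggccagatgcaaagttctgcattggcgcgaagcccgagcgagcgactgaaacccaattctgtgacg
Dlst: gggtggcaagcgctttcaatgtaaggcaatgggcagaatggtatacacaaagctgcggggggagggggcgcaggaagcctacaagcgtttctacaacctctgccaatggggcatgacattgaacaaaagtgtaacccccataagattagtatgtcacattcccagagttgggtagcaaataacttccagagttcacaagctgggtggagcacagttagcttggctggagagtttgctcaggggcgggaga
The Ldha window held 6 matches, counting both strands and matches that overlap, Ogdh held 1, and Idh3a and Dlst held 0. The core is short and common. It stood in 49.5% of the 16832 promoters of tested genes that were read, in 20 of 37 enzyme promoters, in 3 of the 5 genes higher in both batches and in 4 of the 12 lower in both. Among the 37 enzymes the letters AAGGTCA, a half-site of estrogen-related receptors, stood in the promoter of Eno1 alone (3.31% of all promoters), and CATGCGC, the core of the NRF1 element, in those of Hk2 and Pgam1 (4.09% of all promoters). These matches describe letters in a window and are not evidence of binding.

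**Figure D2:**
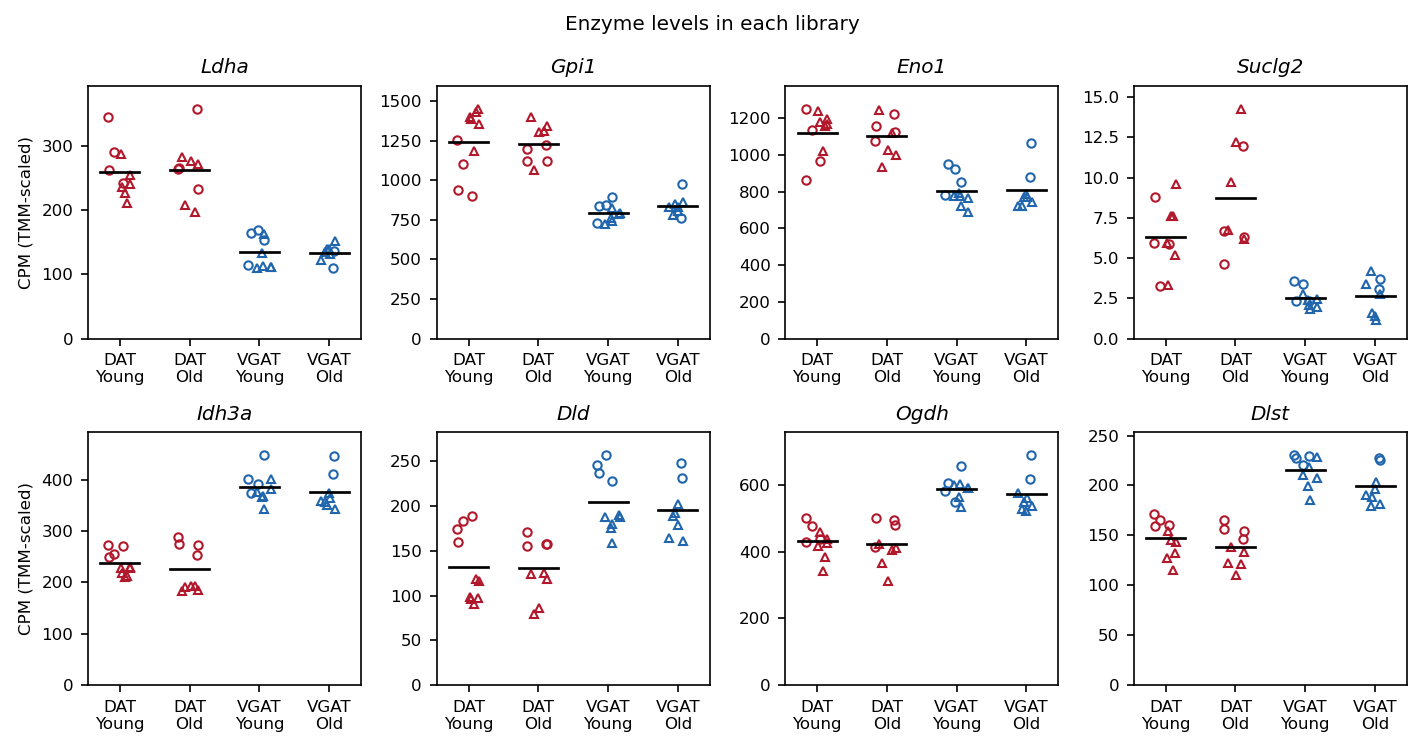
CPM of 8 enzymes in every library, by line and age, with circles for the first batch, triangles for the second and bars for group means. Ldha lies wholly higher in DAT, and Idh3a, Ogdh and Dlst wholly lower, while Gpi1, Eno1, Suclg2 and Dld overlap at their edges.

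The other enzymes higher in both batches were spread over glycolysis, apart from Suclg2. Gpi1, which interconverts glucose 6-phosphate and fructose 6-phosphate, ran from 901 over 1252 to 1451 CPM in DAT and from 724 over 814 to 978 CPM in VGAT libraries (log2 difference 0.61 ± 0.05, adjusted p = 1.15e-13). It was 0.38 in the first batch and 0.71 in the second. Aldoa, the aldolase of muscle and most tissues, had medians of 2592 and 1742 CPM and a log2 difference of 0.48 ± 0.05 (adjusted p = 3.60e-10), which was 0.17 (adjusted p = 0.0497) in the first batch and 0.63 in the second. Eno1, the enolase of most tissues, had medians of 1136 and 776 CPM (0.46 ± 0.05, adjusted p = 1.34e-10), with 0.24 and 0.54 in the batches. The ranges of these 3 genes overlapped between the lines.

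Suclg2, the GTP-forming beta subunit of succinyl-CoA ligase, was the enzyme with the largest log2 difference of those called, 1.52 ± 0.18 (adjusted p = 1.66e-09). Its level was low, from 3.29 over 6.70 to 14.3 CPM in DAT and from 1.17 over 2.43 to 4.21 CPM in VGAT libraries. It was 1.08 in the first batch and 1.76 in the second. The ATP-forming beta subunit Sucla2, which pairs with the same alpha subunit, went the other way, with medians of 238 CPM in DAT and 303 CPM in VGAT libraries and a difference of -0.39 ± 0.05 (adjusted p = 6.95e-09). The alpha subunit Suclg1 was not called over both batches (-0.02, medians 148 and 150 CPM).

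Among glycolytic enzymes lower in DAT libraries in both batches, Aldoc ran from 337 over 450 to 631 CPM in DAT and from 571 over 618 to 1088 CPM in VGAT libraries. Its log2 difference was -0.51 ± 0.08 (adjusted p = 3.84e-07), which was -0.94 in the first batch and -0.30 in the second. Eno2, the neuronal enolase, ran from 940 over 1107 to 1291 and from 1264 over 1470 to 1836 CPM (-0.43 ± 0.04, adjusted p = 7.84e-13). The ranges of Aldoc and of Eno2 overlapped between the lines. Pfkm, the muscle-type subunit of phosphofructokinase and the most abundant of the 3 in these libraries per kb of exon, differed little, with medians of 552 and 596 CPM (-0.15 ± 0.04, adjusted p = 0.00226).

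In the pyruvate dehydrogenase complex 3 of the 4 listed subunits were lower in DAT libraries in both batches. Pdhx, a further subunit, was not among the enzymes and is given below with the genes of pyruvate entry. Pdha1, the E1 alpha subunit that is switched off by phosphorylation, ran from 176 over 200 to 269 CPM in DAT and from 266 over 291 to 346 CPM in VGAT libraries (-0.48 ± 0.04, adjusted p = 2.74e-13). Dlat, the E2 core subunit, had medians of 158 and 200 CPM (-0.36 ± 0.04, adjusted p = 1.39e-10). Dld, the E3 subunit that the 2-oxoglutarate dehydrogenase complex also uses, had medians of 124 and 190 CPM (-0.69 ± 0.06, adjusted p = 3.67e-14). With Ogdh and Dlst, all 3 subunits of the 2-oxoglutarate dehydrogenase complex were therefore lower in DAT libraries. Pdhb, the E1 beta subunit, was called higher over both batches (0.25 ± 0.05, adjusted p = 4.58e-05), with 0.38 in the second batch but -0.03 (adjusted p = 0.680) in the first, so over both batches the 2 subunits of E1 had values of opposite sign.

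Of the remaining TCA cycle enzymes, Cs, which makes citrate, had medians of 249 CPM in DAT and 298 CPM in VGAT libraries (-0.28 ± 0.04, adjusted p = 5.08e-08). Sdha, the flavoprotein subunit of succinate dehydrogenase, had medians of 667 and 847 CPM (-0.41 ± 0.03, adjusted p = 4.01e-14), with -0.37 and -0.46 in the batches. Sdha lies on chromosome 13 at 74469359 to 74498436 (GRCm39), 743 kb from Slc6a3, the gene that holds Cre in the DAT line. Whether DNA carried along with the knock-in takes part in the Sdha difference was not tested. Idh3b, a regulatory partner of Idh3a, was called lower over both batches (-0.21 ± 0.06, adjusted p = 0.00171), at -0.58 in the first and -0.03 in the second.

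Per kb of exon, which allows levels to be compared between genes, Aldoa (478 ± 58.2 CPM per kb, SD, n = 19), Tpi1 (379 ± 33.5), Pgk1 (348 ± 24.9), Mdh1 (345 ± 41.1) and Gapdh (332 ± 38.3) were highest in DAT libraries. The order in VGAT libraries was Tpi1 (366 ± 58.1, n = 18), Aldoa (341 ± 37.5), Mdh1 (321 ± 43.2), Pgk1 (266 ± 41.6), Eno2 (247 ± 24.0) and Gapdh (246 ± 39.5). Neighbours in both orders differed by less than the larger of their SDs, except Aldoa over Tpi1 in DAT and Mdh1 over Pgk1 in VGAT libraries. Apart from the second Aldoa row (0.119 and 0.167 CPM per kb), Hk2 (0.193 and 0.217) and Suclg2 (0.633 and 0.218) were lowest. Hk1, the main brain hexokinase, stood at 59.4 ± 7.50 and 60.4 ± 3.97 CPM per kb and was not called between the lines (-0.04). The exon length joins all annotated transcripts of a gene, which lowers the value of genes with many rare transcripts.

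Ratios between isoenzymes of one step are free of library scaling. The shares below depend on the joined exon lengths, whereas the log2 difference between lines for a pair of genes does not. In DAT libraries Eno1 and Eno2 averaged 1110 and 1111 CPM, with exon lengths of 11.5 and 6.06 kb. Aldoc held 17.4% ± 2.94 (SD, n = 19) of the aldolase A and C counts per kb in DAT and 29.3% ± 1.82 (n = 18) in VGAT libraries. The log2 ratio of Aldoc to Aldoa ran from -2.80 to -1.77 in DAT and from -1.43 to -0.92 in VGAT libraries, with no overlap. Its mean difference was -0.999 (permutation test, adjusted p = 2.333e-05), at -1.08 in the first batch and -0.96 in the second. Eno2 held 65.6% ± 1.68 of the enolase 1 and 2 counts per kb in DAT and 77.9% ± 1.49 in VGAT libraries. Its log2 ratio to Eno1 ran from 0.76 to 1.14 and from 1.64 to 2.11, again with no overlap, and differed by -0.89 (permutation test, adjusted p = 2.333e-05), at -0.83 and -0.93 in the batches. Both values rest on the smallest p, 1e-05, that 100000 resamples can give, adjusted over 7 ratios.

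Sucla2 held 97.5% ± 1.14 of the 2 succinyl-CoA ligase beta subunits in DAT and 99.3% ± 0.218 in VGAT libraries. The log2 ratio of Sucla2 to Suclg2 differed by -1.89 (permutation test, adjusted p = 2.333e-05), at -1.61 and -2.08 in the batches, and its ranges overlapped between 6.32 and 6.53. Ldhb was the major lactate dehydrogenase subunit in both lines, with 83.2% ± 3.48 in DAT and 88.1% ± 2.79 in VGAT libraries. The log2 ratio of Ldhb to Ldha differed by -0.60 (permutation test, adjusted p = 5.6e-05). This rested on the first batch (-1.20, permutation adjusted p = 0.000777), since the second gave -0.22 (permutation adjusted p = 0.1023). Pfkl to Pfkm, liver-type to muscle-type phosphofructokinase, differed by 0.23 (permutation adjusted p = 5.6e-05), at 0.15 (permutation adjusted p = 0.1672) and 0.29 in the batches. Pfkp to the sum of the other two subunits (0.07) and Hk2 to Hk1 (-1.01) did not pass, each with a permutation adjusted p of 0.07424. Hk2 was at 0 in Young_Female_DAT_5 and Young_Male_DAT_4, so a pseudocount of 0.5 counts set their log2 ratios to Hk1 (-14.4 and -15.0). In all other libraries that ratio lay at -10.2 or above. Leaving out the library Old_Female_DAT_2 gave Hk2 to Hk1 a difference of -1.19 and a permutation adjusted p of 0.02389, and leaving out Young_Female_DAT_3 gave the Pfkp ratio 0.08 and 0.03269. Over all fits that left out 1 library, the highest permutation adjusted p was 0.1402 for Hk2 to Hk1 and 0.1374 for the Pfkp ratio.

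**Figure D3:**
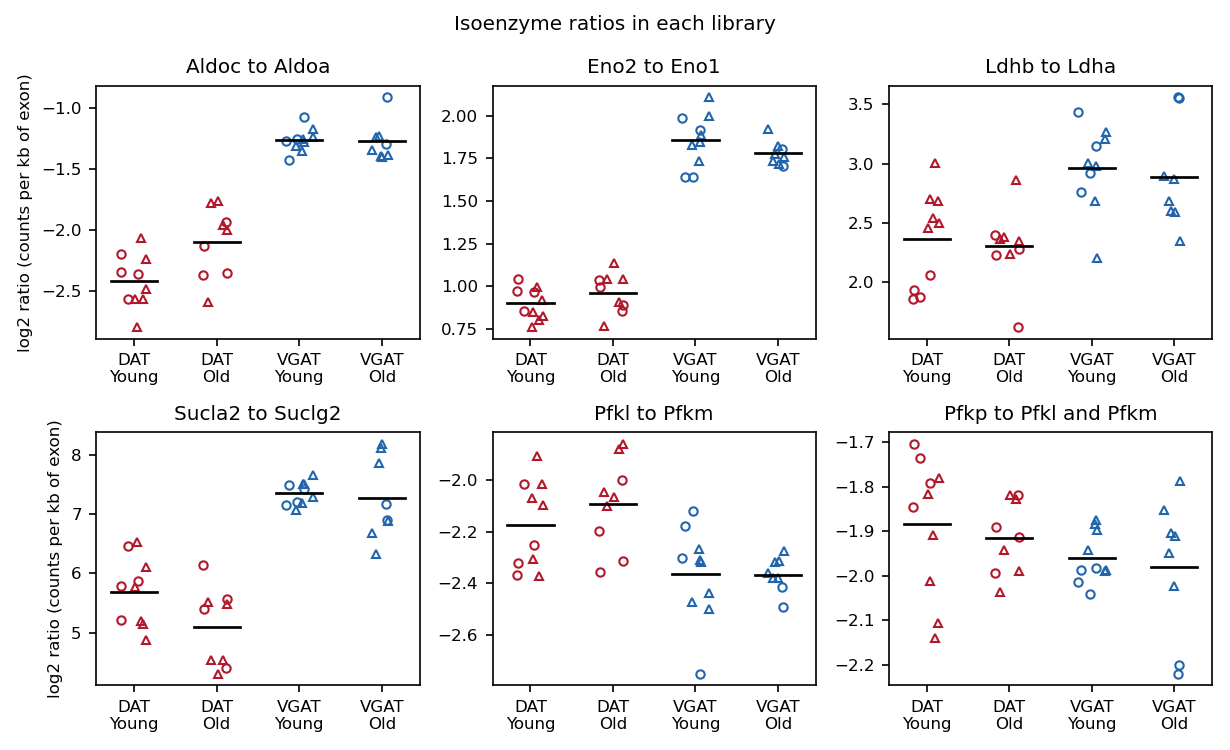
Log2 ratios of 6 isoenzyme pairs, as counts per kb of exon, in every library by line and age, with circles for the first batch, triangles for the second and bars for means. Aldoc to Aldoa and Eno2 to Eno1 form separate clouds for the 2 lines, and Sucla2 to Suclg2 nearly does, whereas Ldhb to Ldha and Pfkl to Pfkm overlap.

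Summed over roles, glycolysis transcripts outweighed TCA cycle transcripts in every library, and more so in DAT libraries. The ratio of summed glycolysis CPM to summed TCA cycle CPM had a median of 3.18 in DAT (2.697 to 3.41) and 2.46 in VGAT libraries (2.37 to 2.72). The ranges met only where the lowest DAT library, at 2.697, fell below the highest VGAT library, at 2.72. The medians were 3.22 and 2.55 in the first batch and 3.15 and 2.45 in the second. The gaps between the sums themselves varied with batch. Glycolysis summed to medians of 16488 CPM in DAT and 16386 CPM in VGAT libraries in the first batch, and to 17615 and 13532 CPM in the second. The TCA cycle summed to 5066 and 6518 CPM in the first batch and to 5485 and 5507 CPM in the second. Cytosolic Mdh1 made up a large part of this sum, and so weighed on the ratio too. It averaged 1464 CPM in DAT and 1737 CPM in VGAT libraries in the first batch, and 1734 and 1393 CPM in the second. The sum and the ratio were not taken without Mdh1. The pyruvate dehydrogenase subunits were lower in DAT libraries in both, at 764 and 964 CPM and at 664 and 802 CPM, and within each batch every DAT library lay below every VGAT library.

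**Figure D4:**
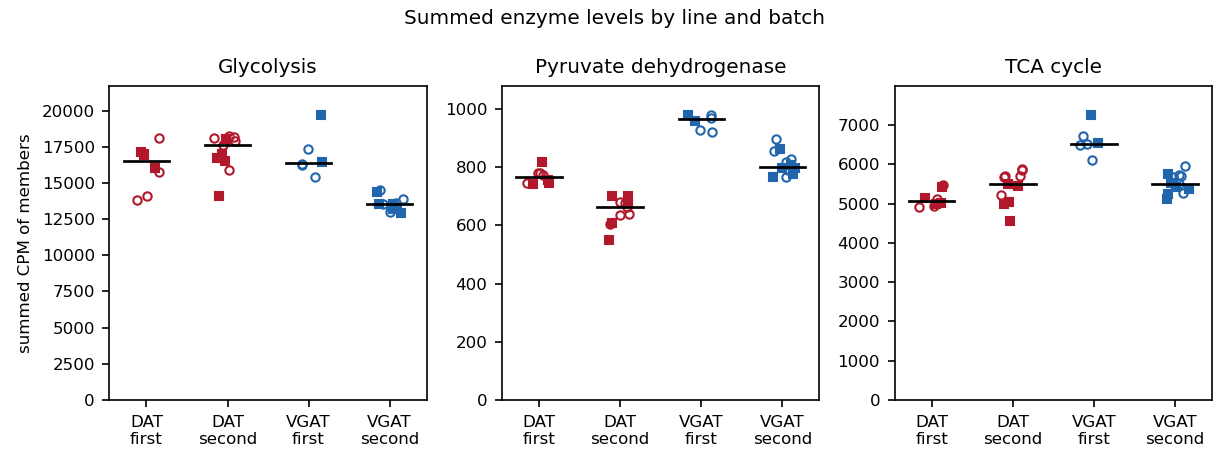
Summed CPM of the glycolysis, pyruvate dehydrogenase and TCA cycle rows in every library, for each line and batch, with open circles for Young, filled squares for Old and bars for medians. The pyruvate dehydrogenase sum is lower in DAT libraries in both batches (medians 764 and 964 CPM, then 664 and 802 CPM), while the glycolysis medians differ mainly in the second (17615 and 13532 CPM) and the TCA cycle medians in the first (5066 and 6518 CPM).

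The difference between the lines depended on batch for most of these enzymes. The test of that dependence, second minus first batch of the DAT minus VGAT difference, was called positive for 22 of 38 enzyme rows and negative for 3, against 12.7% and 16.4% of all 16898 genes. Ldhb had the largest called value, 0.88 ± 0.11 (adjusted p = 4.21e-08), with mean levels of 1091 ± 129 and 1252 ± 153 CPM in the first batch of DAT and VGAT (SD, n = 8 and 6) and 1363 ± 157 and 846 ± 96.8 CPM in the second (n = 11 and 12). Mdh2, mitochondrial malate dehydrogenase, followed at 0.71 ± 0.08 (adjusted p = 2.88e-09) and Sdhb, the iron-sulfur subunit of succinate dehydrogenase, at 0.68 ± 0.08 (adjusted p = 1.91e-08). The 3 negative values were those of Pdha1 (-0.28), Dld (-0.27) and Idh3a (-0.21), which were lower in DAT libraries in the first batch and lower still in the second.

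Tpi1, Pkm, Ldhb, Suclg1, Sdhb, Sdhc, Sdhd, Mdh1 and Mdh2 were called in both batches in opposite directions, lower in DAT libraries in the first and higher in the second. These are 9 of 38 enzyme rows, against 488 of 16324 genes. Pkm, pyruvate kinase, averaged 2575 ± 266 and 3167 ± 332 CPM in the first batch of DAT and VGAT and 2657 ± 238 and 2357 ± 165 CPM in the second. Between batches Pkm changed in VGAT (-0.43, adjusted p = 2.70e-06) and not detectably in DAT libraries (0.04, adjusted p = 0.614). Mdh2 changed in DAT libraries, from 330 ± 31.0 to 489 ± 52.7 CPM (0.56, adjusted p = 2.92e-11), while the change in VGAT libraries (-0.15) was not called. Gapdh (0.43 ± 0.06, adjusted p = 7.16e-08) and Pgk1 (0.38 ± 0.05, adjusted p = 1.82e-09), which carry out consecutive steps of glycolysis, were called higher over both batches and not in the first alone (0.06 and 0.11). Ldhb (0.35 ± 0.09, adjusted p = 0.000849) and Sdhb (0.27 ± 0.07, adjusted p = 0.000500) were called higher over both batches, but lower in the first alone (-0.24 and -0.17). Pgam1, called lower over both (-0.14 ± 0.04, adjusted p = 0.00337), was called in the second batch only (-0.23).

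Library quality moved with this split. The second-batch DAT libraries had 14323 to 18170 genes detected, against 18485 to 21803 in all others, and gave 1.69% to 2.20% of counts to ribosomal protein genes, against 0.868% to 1.25%. Their part in the batch differences was not tested. Transcripts of other cells moved with the line as well. All 15 listed astrocyte markers were called higher in DAT libraries, 14 of them in both batches, with none at 0. Their summed level was 889 to 2120 CPM in Young and 951 to 2450 CPM in Old DAT libraries, against 389 to 646 and 535 to 960 CPM in VGAT libraries. All 8 endothelial markers were higher in both batches, and 9 of 10 oligodendrocyte markers (with 1 lower) and 2 of 15 microglia markers were called higher in the fit of all libraries, of which 1 and 0 were called higher in both batches alone. Their part in the enzyme differences was not tested.

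The lines were also compared within each age. In Young mice 10 enzyme rows were called higher in DAT libraries and 15 lower, against 24.3% and 25.4% (49.8% in all) of all genes. In Old mice 10 were higher and 13 lower, against 22.7% and 24.1% (46.8% in all). The 24 enzymes called over both ages were all called in Young mice, and all but Pgam1 in Old mice. Hk2, the inducible hexokinase, averaged 0.70 CPM in Young DAT and 1.76 CPM in Young VGAT libraries, so its values rested on very few counts. It was called in Young mice alone, at -1.33 ± 0.55 (adjusted p = 0.0427), against 0.50 ± 0.58 in Old mice. The difference between these values, the interaction of age and line, did not pass for Hk2 (1.83 ± 0.80, edgeR adjusted p = 1.00) or for any enzyme, with 1 of 38 at an unadjusted p below 0.05. It passed for 0% of all genes, with 467 at an unadjusted p below 0.05.

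With age, no enzyme of glycolysis or the TCA cycle was called in either line. In DAT libraries 0 of the 37 enzyme rows that could be tested were called by edgeR, DESeq2 or limma-voom, against 0.00672% of all 14889 genes, and 3 had an unadjusted p below 0.05 (5.28% of all genes did). The rule used by the study was an adjusted p below 0.5 with an absolute log2 fold change over 0.5. Applied to these edgeR results, it took 0 of the 37 rows and 0.101% of all genes. The study applied it to DESeq2 results after removing glial genes and correcting for batch, and called many more genes. Its pathway results pointed to higher glycolysis and gluconeogenesis genes with age in dopamine neurons. In VGAT libraries 0 of 38 were called by any of the 3 tools, against 0.0256% of 15607 genes. The study's rule, again on edgeR results, took 0, against 0.199%. Here too 3 had an unadjusted p below 0.05 (5.98% of all genes did). The median difference, Old minus Young, was -0.03 over the enzymes in DAT and 0.01 in VGAT libraries, against 0.00 over all genes in both. In simulated data the DAT age fit called 72% of 2-fold and 28% of 1.41-fold changes, and the VGAT age fit 83% and 65%. The changed genes were drawn at random from tested genes of low as well as high level, without a batch difference. Most enzymes stood at high levels, so these shares are not those of the enzymes and cannot say how large a change was missed in them. The lack of calls does not exclude small changes in either line.

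In DAT libraries Aldoc had the smallest p. It ran from 337 over 423 to 537 CPM in Young and from 408 over 522 to 631 CPM in Old libraries, a log2 difference of 0.29 ± 0.09 (adjusted p = 0.811) between ranges that overlapped widely. The 15 astrocyte markers had a positive difference too, all 15 in DAT (median 0.31) and 14 in VGAT libraries (median 0.29), with 0 of them called. Sdhd, a membrane anchor of succinate dehydrogenase, had the smallest p among negative values, from 108 over 130 to 158 CPM in Young and from 98.7 over 112 to 132 CPM in Old libraries (-0.19 ± 0.07, adjusted p = 0.931). Hk2 had the largest value, 1.84 ± 0.78 (adjusted p = 0.931), at levels of 0 to 1.74 CPM in Young and 0.590 to 7.98 CPM in Old libraries, so it rested on very few counts. Of the 16 TCA cycle enzymes, 13 had a negative value in DAT libraries (median -0.08), among them Sucla2 (-0.14 ± 0.07), Idh3b (-0.12 ± 0.06) and Idh3a (-0.11 ± 0.05), and none of them passed.

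In VGAT libraries the values were smaller still. The smallest p values belonged to Aldoa (0.08 ± 0.04, adjusted p = 0.826) and Dlst (-0.09 ± 0.04, adjusted p = 0.826), and Gpi1 followed (0.09 ± 0.05, adjusted p = 0.832). Apart from the second Aldoa row (0.76 ± 0.45) and Suclg2 (0.14 ± 0.22), both at low levels, no enzyme had a larger value than Gpi1 in either direction. Of 18 glycolysis rows 15 had a positive value, and of 16 TCA cycle enzymes 8 did.

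**Figure D5:**
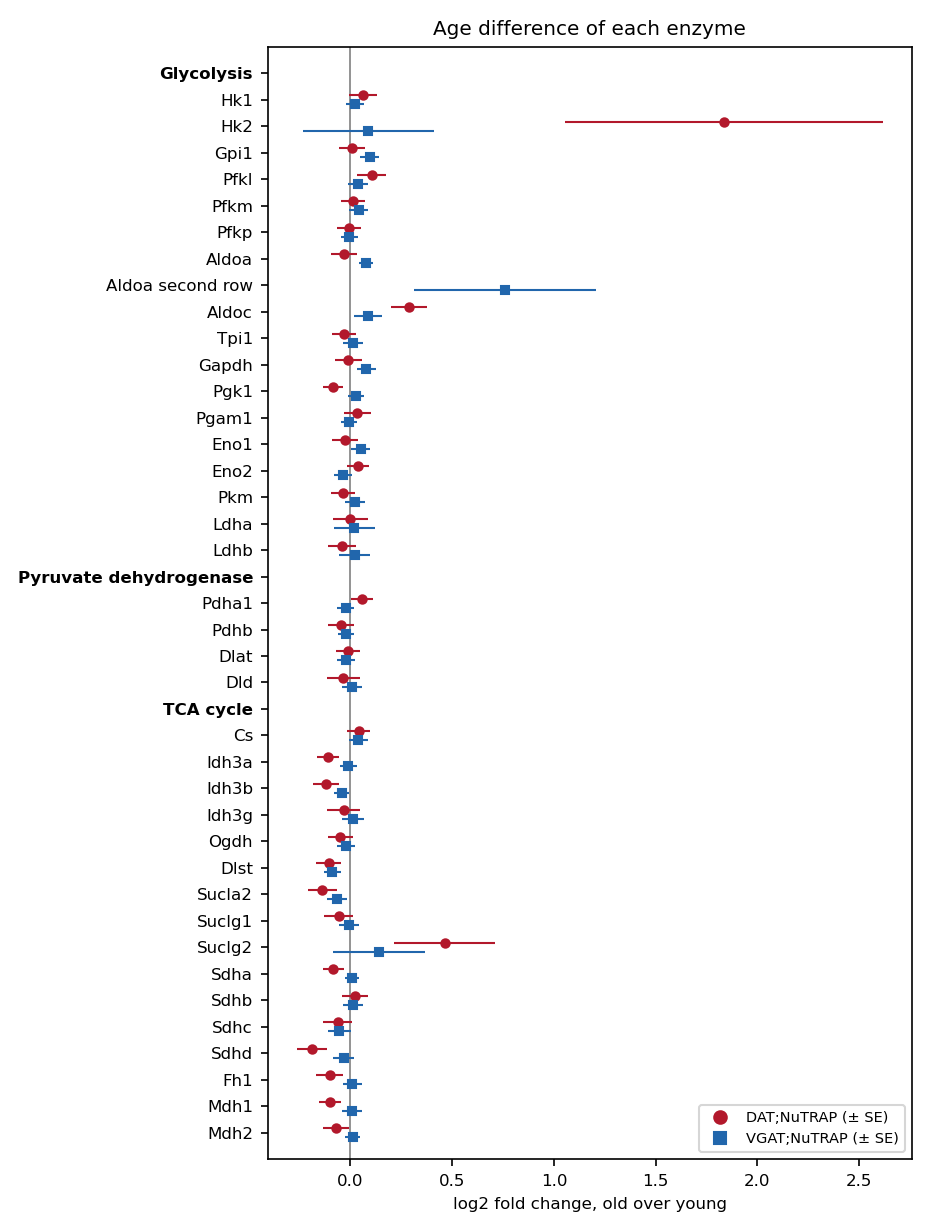
Log2 difference, Old minus Young, of every tested enzyme row with its standard error, in DAT and in VGAT libraries. The points farthest from 0 are Hk2 (1.84 ± 0.78) and Suclg2 (0.46 ± 0.25) in DAT libraries and the second Aldoa row (0.76 ± 0.45) in VGAT libraries, all of low level, and 0 enzymes were called.

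Within the sexes 0 enzymes were called by edgeR, DESeq2 or limma-voom. In DAT females 6 of 38 rows had an unadjusted p below 0.05, as 6.55% of all 16560 genes did, and 0.00604% of all genes were called. The smallest p was that of Aldoc (0.43 ± 0.12, adjusted p = 0.499). In DAT males 1 row did (3.50% of genes did, 0% were called), and for the difference between the sexes 3 did (4.25% of genes did, 0% were called). In VGAT females 1 did (3.39% of 17185 genes did, 0.0116% were called), in VGAT males 3 did (7.61% did, 0.0407% were called), and for the difference between the sexes 0 did (5.09% did, 0% were called). Groups of 3 to 6 mice limit what these comparisons could show.

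The isoenzyme ratios did not pass with age either. In DAT libraries the log2 ratio of Aldoc to Aldoa averaged -2.42 ± 0.22 (SD, n = 10) in Young and -2.10 ± 0.28 (n = 9) in Old mice (difference 0.32, exact permutation p = 0.01481, adjusted over 14 tests 0.1747). Leaving out the library Old_Female_DAT_3 gave 0.38 with an exact permutation adjusted p of 0.04799. Over all fits that left out 1 library, the highest exact permutation adjusted p was 0.3711. Hk2 to Hk1 had a difference of 2.11 (exact permutation p = 0.02496, adjusted 0.1747) and Sucla2 to Suclg2 one of -0.59 (exact permutation p = 0.05151, adjusted 0.2404). The Hk2 to Hk1 difference leaned on the Young libraries Young_Female_DAT_5 (-14.4) and Young_Male_DAT_4 (-15.0). Hk2 was at 0 in both, so a pseudocount set their ratios, and all other libraries lay at -10.2 or above. In VGAT libraries the largest of the 7 differences was -0.08, with an exact permutation adjusted p of 0.5758 or more for each.

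Genes that supply, steer or branch from these pathways, taken from textbook pathway lists, were compared between the lines in the same fit. Over all genes this fit called 30% higher and 30.4% lower in DAT libraries, and the counts of each list stand against these shares. Astrocyte and endothelial markers were higher in DAT libraries as well, and their part in the differences of these lists, transporters included, was not tested. Of 8 glucose and lactate transport genes 5 were called higher in DAT libraries and 3 lower. Slc16a3, the lactate exporter MCT4, averaged 32.2 CPM in DAT and 4.21 CPM in VGAT libraries (2.93 ± 0.16, adjusted p = 7.84e-19), its partner Bsg had a difference of 0.60 ± 0.06, the glucose transporter Slc2a1 one of 0.77 ± 0.12 and the neuronal glucose transporter Slc2a3 one of -0.44 ± 0.04. Of 20 regulators and other isoforms of glycolysis 9 were higher and 5 lower, with Tigar, which lowers fructose 2,6-bisphosphate, at 1.25 ± 0.06 and phosphoglucomutase Pgm1 at 0.62 ± 0.05.

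Genes of pyruvate entry and its control were mostly lower, 9 of 11, with 1 higher, against 30.4% and 30% of all genes. In both batches 4 of them were lower, where 16.3% of all genes were. Both counts include Pdhx, the subunit of the pyruvate dehydrogenase complex that binds E3. Pdhx stood at -0.29 ± 0.05, with -0.25 in the first batch and -0.35 in the second. The regulatory (Pdpr, -1.93 ± 0.18) and a catalytic (Pdp1, -0.69 ± 0.08) subunit of the phosphatase that reactivates the pyruvate dehydrogenase complex were lower. Of the 4 kinases that switch it off, Pdk1 (0.47 ± 0.06) was higher and Pdk2 (-0.15 ± 0.06), Pdk3 (-0.30 ± 0.08) and Pdk4 (-1.09 ± 0.31) were lower, the latter 3 being named after their values were seen. Among 17 other enzymes and assembly factors of the cycle 8 were higher and 4 lower. Cytosolic Idh1 stood at 1.04 ± 0.05, against -0.75 for Idh3a. Of 10 genes of the NADH shuttles 4 were higher and 5 lower, among the latter Got1 (-0.63 ± 0.04) and Slc25a12 (-0.57 ± 0.04) of the malate-aspartate shuttle. The pentose phosphate pathway, which draws on glucose 6-phosphate, had 4 of 7 genes higher and 2 lower. Transaldolase Taldo1 stood at 1.09 ± 0.08 and Pgd at 0.62 ± 0.06. G6pdx, the enzyme that takes glucose 6-phosphate into the pathway, went the other way, averaging 52.5 CPM in DAT and 65.3 CPM in VGAT libraries. Its log2 difference was -0.31 in the first batch and -0.39 in the second. In these lists 0 genes were called with age in either line by edgeR, against 0.00672% of all genes in DAT and 0.0256% in VGAT libraries.

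The second Aldoa row (ENSMUSG00000114515) is annotated as Gm57854 and overlaps Aldoa (ENSMUSG00000030695) on the minus strand of chromosome 7, so reads may have been split between them. It held 0 to 1.83 CPM in DAT libraries, against a lowest value of 1999 CPM for Aldoa, and was not called (-0.66 ± 0.58). Named pseudogene copies held at most 0.329% of the counts of their enzyme, the highest being Pgam1-ps2.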

How the data were processed

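RNA bound to GFP-tagged ribosomes was sequenced from 37 mice. The authors aligned reads to mm39 (GRCm39) with STAR 2.7.10b and counted them per gene with featureCounts (version not given in the sources used here, strand setting likewise), per the submitters' processing notes, and the deposited values used here are these raw counts. The removal of low and glial genes and the batch correction that the study describes came after this stage. The 2 tables were joined by gene ID, scaled with TMM factors and filtered with filterByExpr (minimum count 10). Tests used edgeR 4.0.16 (quasi-likelihood, robust) in R 4.3.3 with Benjamini-Hochberg adjustment over all genes tested. The cell type fit held line by age groups and batch, and the age fits held age, or sex by age, and batch within a line. DESeq2 1.42.0 and limma-voom (limma 3.58.1) were alternatives. Isoenzyme ratios were tested by two-sided permutation, with 100000 resamples between lines and exact enumeration with age. The ratio with Hk2 needed a pseudocount of 0.5 counts, because Hk2 was at 0 in some libraries, whereas the planned test had none.

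The enzymes and lists were chosen with earlier results of these data known. Any enzyme could be named, with full statistics for those called, for isoenzyme pairs and, where none passed, for the smallest p in each direction. Of each other list at most 4 genes with the smallest p were named. Exceptions were Pdk2, Pdk3, Pdk4, Pdhx and G6pdx, which were named after their values were seen. Positions, exon lengths and promoters came from the GRCm39 genome and its GENCODE annotation. The test scripts were tested on simulated data. The 70 pairs of libraries within a group all differed by more than sampling noise (lowest chi-square per degree of freedom 5.515). Library totals, 13841253 to 38235015 counts, leave levels of about 1 CPM with few counts.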

Additional observations from a re-analysis of the deposited data

Results flagged for a closer look

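Of 180 groups of 8 to 10 values, 11 held a library far from the rest by Dixon's criterion, where chance gives about 9. The groups were not split by batch. In the VGAT library Old_Male_VGAT_1, 6 values stood above the other Old VGAT libraries. These were Aldoc at 1088 CPM (next 715), Gapdh at 2583 CPM (next 2021), Eno1 at 1067 CPM (next 880), Cs at 375 CPM (next 317), Sdhc at 188 CPM (next 140) and the log2 ratio of Aldoc to Aldoa at -0.917 (next -1.24). Old_Male_VGAT_1 and Old_Female_VGAT_1, which held each next CPM value, were the first-batch libraries among the Old VGAT libraries. Another first-batch VGAT library, Young_Male_VGAT_1, had Aldoc at 869 CPM (next 713). In the DAT library Old_Male_DAT_5, Gapdh at 1986 CPM (next 2282) and Pkm at 2157 CPM (next 2532) were low. Hk2 reached 7.98 CPM in Old_Female_DAT_2 (next 4.34), and the log2 ratio of Hk2 to Hk1 was -9.95 in Old_Male_VGAT_3 (next -8.46), both from very few counts. The 24 enzymes called between the lines were called in each of the 37 fits that left out 1 library.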

How the results depend on the processing

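With both ages averaged, the 10 enzyme rows higher and 14 lower in DAT libraries became 5 and 24 in the first batch alone (21.5% and 22.4% of all genes) and 18 and 13 in the second (26.4% and 30.3%). In Young mice the 10 higher and 15 lower became 3 and 22 (15.8% and 16.4%), then 16 and 12 (21.8% and 25.6%), and in Old mice the 10 higher and 13 lower became 3 and 20 (12.9% and 14.9%), then 16 and 11 (20% and 23.6%). The study's cutoff (adjusted p below 0.5, absolute log2 fold change over 0.5) left 3 higher and 5 lower over both ages, 4 and 7 in Young and 3 and 3 in Old mice, as its fold limit requires. Ldhb (-0.24), Pdhb (-0.032) and Sdhb (-0.17) reversed in the first batch. Without a count filter 1 enzyme row was called with age in DAT females. Other counts stayed within 1.5 times their value under DESeq2, limma-voom, other size factors, other filters, sex as a covariate, a line by batch term or no batch term, and leaving out 1 library gave 10 to 11 higher and 14 to 16 lower over both ages, 9 to 10 and 12 to 15 in Young mice and 9 to 10 and 11 to 15 in Old mice. The median over all genes shifted by over 0.1 with limma-voom (-0.12), without a count filter (-0.14) and with the replicate block (-0.11).

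The labels do not say that replicate numbers pair the samples, and same-numbered samples deviated together (correlation over 0.1) in 3 of 9 pairs for age in DAT, 6 of 8 in VGAT (-0.31 to 0.65) and 4 of 16 between lines, not in every pair, so no pairing was assumed. A replicate block gave 10 higher and 13 lower over both ages, 8 and 12 in Young, 8 and 11 in Old mice and 0 with age, and Pgam1 was not called (-0.10, adjusted p = 0.0747).

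Of the log2 ratios between lines, Pfkp to Pfkl and Pfkm was 0.24 in the first batch and -0.027 in the second, Pfkl to Pfkm 0.15 in the first and Ldhb to Ldha -0.22 in the second. Leaving out 1 library moved Hk2 to Hk1 between -1.19 and -0.69 and the Pfkp ratio between 0.056 and 0.084. Of the ratios with age, which did not pass, these changed sign. In the first batch Hk2 to Hk1 in VGAT was -0.19, Aldoc to Aldoa in VGAT 0.15, Eno2 to Eno1 in DAT -0.015, and Ldhb to Ldha 0.20 in DAT and 0.49 in VGAT. In the second batch the Pfkp ratio was 0.038 in DAT and 0.025 in VGAT, and Pfkl to Pfkm 0.047 in VGAT. Leaving out 1 library gave, in VGAT, -0.086 to 0.28 for Hk2 to Hk1, -0.048 to 0.014 for the Pfkp ratio, -0.043 to 0.027 for Pfkl to Pfkm, -0.061 to 0.012 for Aldoc to Aldoa, -0.17 to 0.0027 for Ldhb to Ldha and -0.22 to 0.05 for Sucla2 to Suclg2, and in DAT -0.13 to 0.026 for Ldhb to Ldha and 0.28 to 0.38 for Aldoc to Aldoa. The causes of these changes were not tested, and depth limits Hk2, Suclg2 and the second Aldoa row.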
